A study of Homo sapiens with 9 samples.

Results

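The MYC and MAX network genes encode a family of basic helix-loop-helix leucine zipper transcription factors. The members were taken by gene name as MYC, MAX, MXD1, MXD3, MXD4, MNT, MGA, MLX and MLXIP, and not by a cutoff on their measured values. Earlier results of these data were known when they were chosen. All 9 were found among the 24344 genes of the count table. Each of the 9 passed the filter on low counts, which kept 14195 genes. Total RNA of MDA-MB-231 cells, a human line from a breast adenocarcinoma that is triple negative and mesenchymal in type, was sequenced after 48 h of treatment. The 3 groups of 3 libraries had received Compound Kushen Injection (CKI, made from the herbs Kushen and Baituling, 2 mg/mL total alkaloids), an injection of Kushen alone, or an injection of Baituling alone, both made in the same way and diluted to the equivalent concentration. Untreated libraries are not analysed here, so each value below sets one injection against another. The libraries come from a single cell line, and in such a bulk measurement a different mix of cell states and a different amount of transcript per cell cannot be told apart.

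MYC binds E-box DNA (CACGTG) only as a dimer with MAX, recruits histone acetyltransferases there and raises transcription of genes for ribosome production, nucleotide synthesis and growth. The MXD proteins, MNT and MGA compete for the same partner. MXD proteins and MNT bring in the SIN3 and HDAC corepressors, and MGA is the scaffold of the Polycomb complex PRC1.6. MLX is the second dimer hub. It pairs with MLXIP (MondoA) and MLXIPL (ChREBP), which sense glucose phosphates, and also with some of the MXD proteins and MNT. MYC transcript is abundant in many breast cancer lines, MXD1 is typical of differentiating cells and MXD3 of cells in S phase.

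Total counts were 20144628 to 23782071 per library, and levels are given as CPM (counts scaled to a common library size by the TMM method so that most genes lie level between libraries). TMM factors were 0.877 to 0.899 for Baituling libraries, 1.02 to 1.05 for Kushen and 1.08 to 1.10 for CKI. Plain library totals raised the median difference over all genes by 0.29 on the log2 scale between CKI and Baituling, by 0.21 between Kushen and Baituling and by 0.08 between CKI and Kushen, so differences below are relative to the TMM scale. The line's markers VIM, CD44 and AXL were abundant, at 336 to 2116, 605 to 907 and 524 to 1036 CPM. They differed between treatments, and relative to Baituling VIM was lower by -2.56 in CKI and -1.83 in Kushen, AXL by -0.94 and -0.42 and CD44 by -0.55 and -0.49. CDH1 had 11 to 51 counts, ESR1 0 to 3 and PGR 0 to 4, whereas GATA3, named here as a low marker, had 196 to 453 counts. CDH1 and GATA3, the 2 low markers tested, were both lower than with Baituling at an edgeR adjusted p under 0.05. Their log2 fold changes were -1.35 to -1.34 in CKI and -1.75 to -1.31 in Kushen. The leukocyte gene PTPRC (0 to 9 counts) and the liver gene ALB (0 to 7 counts) were near 0.

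The proximal promoters of the MXD members are shown because these 3 genes behaved in 3 different ways: MXD1 was highest with CKI, MXD3 was highest with Baituling and MXD4 was level on the TMM scale used below. Each window is the RefSeq promoter of the gene (table build GRCh38.p14), 250 bases before to 50 after the start, 5′ to 3′ on the gene's strand, placed by exact match on GRCh37. Capitals mark the E-box CACGTG, a palindrome that reads the same on both strands.
MXD1 (chr2:70141991-70142290, plus strand): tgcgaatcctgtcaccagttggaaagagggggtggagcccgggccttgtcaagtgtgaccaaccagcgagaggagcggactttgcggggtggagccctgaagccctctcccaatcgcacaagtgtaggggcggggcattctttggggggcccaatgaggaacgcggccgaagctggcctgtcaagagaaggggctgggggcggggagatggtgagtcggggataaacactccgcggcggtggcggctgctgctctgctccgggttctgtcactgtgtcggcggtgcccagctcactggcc
MXD3 (chr5:176739704-176740003, minus strand): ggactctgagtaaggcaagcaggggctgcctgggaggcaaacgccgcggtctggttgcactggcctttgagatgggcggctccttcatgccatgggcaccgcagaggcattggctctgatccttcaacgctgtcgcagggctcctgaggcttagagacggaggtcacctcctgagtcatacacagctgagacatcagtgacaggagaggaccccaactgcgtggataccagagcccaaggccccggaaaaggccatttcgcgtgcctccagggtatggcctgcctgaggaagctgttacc
MXD4 (chr4:2263787-2264086, minus strand): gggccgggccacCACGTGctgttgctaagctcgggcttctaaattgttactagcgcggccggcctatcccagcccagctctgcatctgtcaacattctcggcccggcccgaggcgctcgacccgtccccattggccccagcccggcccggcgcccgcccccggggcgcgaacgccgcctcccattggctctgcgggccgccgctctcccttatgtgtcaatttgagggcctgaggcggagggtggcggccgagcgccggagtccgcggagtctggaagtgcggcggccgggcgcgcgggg

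Among 35116 promoter windows of this length in the RefSeq table, 2548 (7.26%) hold CACGTG. The 8 members searched, which leave out MYC, include 3 that hold it: MXD4 at position -238, MNT at -193 and MLX at -50 from the start. This counts genes, some of which (MAX and MGA) have several windows, whereas the share above counts windows. The letters CACGTG do not occur in these windows of MXD1 and MXD3, the members whose level differed most between injections. They are absent from the windows of MAX, MGA and MLXIP too. Whether the motif goes with the differences in level was not tested. In GENCODE coordinates on GRCh37, MAX (ENSG00000125952) lies at chr14:65472892-65569413, MXD1 (ENSG00000059728) at chr2:70124820-70170077 and MXD3 (ENSG00000213347) at chr5:176728462-176739758. MXD4 (ENSG00000123933) lies at chr4:2249159-2263836, MNT (ENSG00000070444) at chr17:2287367-2304398 and MGA (ENSG00000174197) at chr15:41913332-42065279. MLX (ENSG00000108788) lies at chr17:40719090-40725257, MLXIP (ENSG00000175727) at chr12:122516628-122631894, and MYC (ENSG00000136997) on chromosome 8.

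MYC, the activator of the network, was lowest with Kushen, intermediate with CKI and highest with Baituling. Its level was 237, 249 and 260 CPM in the 3 CKI libraries, 195, 214 and 225 CPM in the Kushen libraries and 315, 302 and 307 CPM in the Baituling libraries, with 4850 to 6581 counts behind the CKI and Kushen values. The 3 groups did not overlap. The share of all genes tested whose groups lie apart in this way was not counted, here or for the genes and ratios below. MYC was 1.18-fold higher with CKI than with Kushen (log2 fold change 0.23 ± 0.05 SE, adjusted p = 0.00107 in edgeR's quasi-likelihood test, n = 3 against 3). With Kushen its level was below that with Baituling, at a log2 fold change of -0.54 ± 0.05 (edgeR adjusted p = 9.03e-09). It was also lower with CKI than with Baituling, by -0.31 ± 0.05 (edgeR adjusted p = 1.36e-05), but this difference depended on the scaling and came to -0.02 (adjusted p = 0.626) with library totals. A transcript level says nothing of MYC protein, whose turnover is fast.

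The paralogs of MYC were scarce in these cells. MYCN, an oncogene of neural tumors, had 1 count in a single CKI library and 0 in the other 8, and was not tested. MYCL lay at 2.71, 2.42 and 2.49 CPM with CKI, 1.61, 1.93 and 1.82 CPM with Kushen and 1.37, 1.75 and 1.66 CPM with Baituling, from only 28 to 69 counts. The CKI libraries were the highest and the other groups overlapped. MYCL was higher with CKI than with Baituling (0.68, adjusted p = 0.00378 in edgeR) and than with Kushen (0.51, adjusted p = 0.0313), and the second call was lost without any one of 5 of the 6 libraries compared, with adjusted p of 0.0529 to 0.109 in those 5. MYC carried far more transcript than either paralog in every library.

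MAX, the shared partner, differed little between CKI and Kushen. Its level was 69.5, 69.5 and 70.2 CPM with CKI, 67.8, 67.6 and 64.4 CPM with Kushen and 88.8, 82.5 and 84.5 CPM with Baituling. The Baituling libraries were the highest on this scale. MAX was lower than with Baituling by -0.29 ± 0.05 in CKI (adjusted p = 1.13e-05 in edgeR), a difference of -0.00 with library totals (adjusted p = 0.952), and by -0.36 ± 0.05 in Kushen (adjusted p = 1.03e-06; -0.14 with library totals). CKI and Kushen differed by 0.07, which did not pass (edgeR adjusted p = 0.267; 0.0183 with library totals). FNTB, which overlaps MAX on the opposite strand, had 163 to 235 counts against 1451 to 1820 for MAX and was lower than with Baituling as well, by -0.65 in CKI and -0.53 in Kushen. Strand was not recorded in these libraries, and the part of FNTB reads in the MAX value was not tested.

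**Figure D1:**
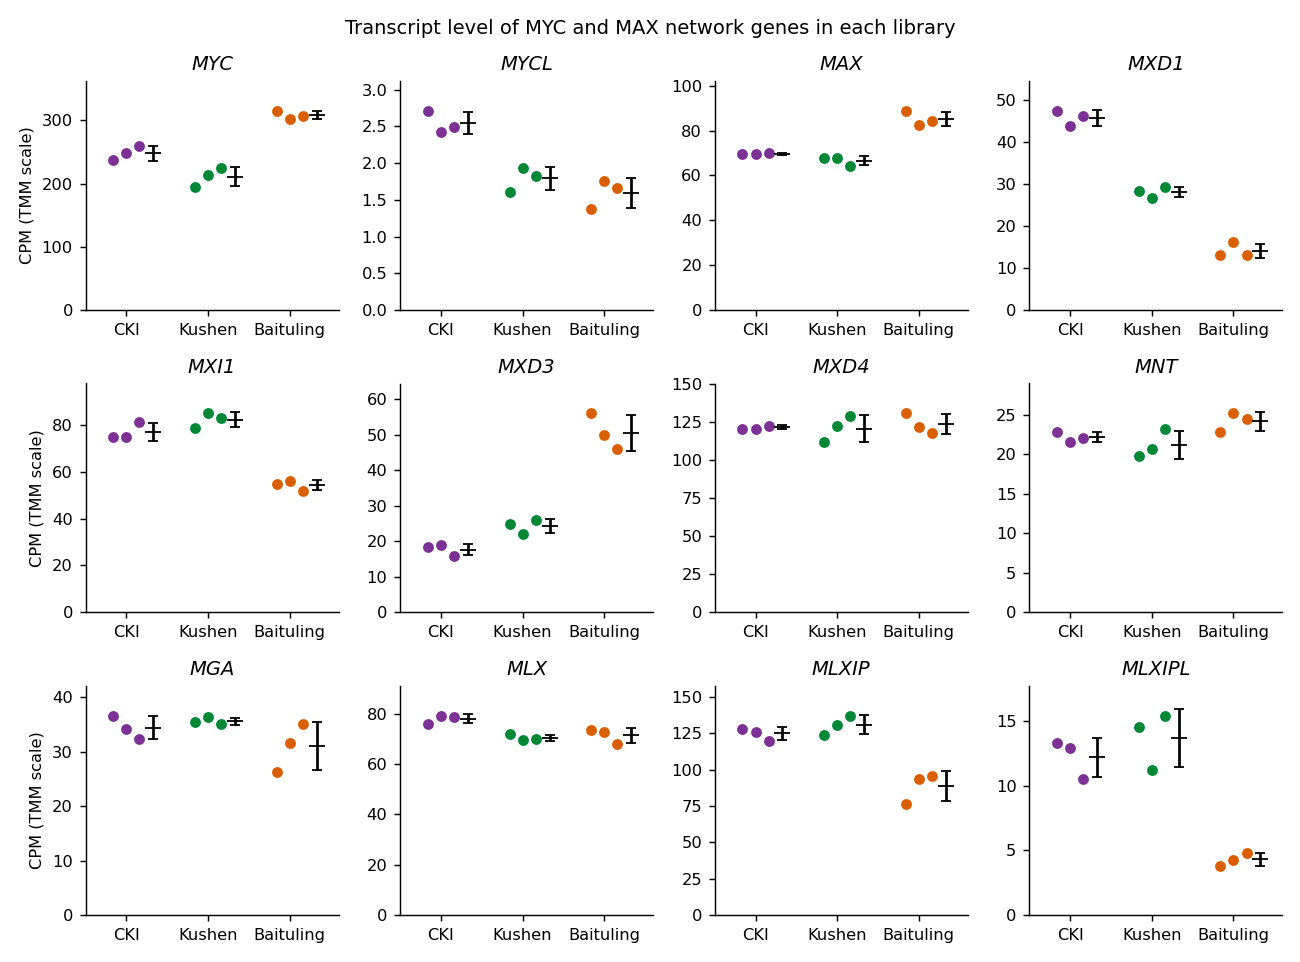
Level in CPM (y axis, from 0, TMM scale) of 12 network genes in the 3 libraries of each treatment (x axis), 1 panel per gene. Colored points are libraries and the black mark is the mean ± SD of 3 libraries. MXD1 descends from CKI to Kushen to Baituling while MXD3 ascends, and MXD4 stays at 112 to 131 CPM.

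MXD1, a MAX partner that represses E-box genes and goes with cell cycle exit, showed the largest difference of the 9 members in CKI against Baituling. It lay at 47.3, 43.6 and 46.1 CPM with CKI, 28.2, 26.7 and 29.1 CPM with Kushen and 13.1, 16.1 and 13.1 CPM with Baituling. Every CKI library was above every Kushen library, and every Kushen library was above every Baituling library. MXD1 was 3.24-fold higher with CKI than with Baituling (log2 fold change 1.70 ± 0.07, adjusted p = 9.02e-14 in edgeR). It was 1.99-fold higher with Kushen than with Baituling (0.99 ± 0.08, edgeR adjusted p = 8.39e-10), just under the log2 fold threshold of 1. That value moved to 1.20 with library totals and 1.06 with upper quartile factors. MXD1 was also higher with CKI than with Kushen by 0.71 ± 0.07 (edgeR adjusted p = 1.24e-07). SNRNP27, a splicing gene that overlaps MXD1 on the same strand, showed -0.10 and -0.04 against Baituling in CKI and Kushen, and neither passed (edgeR adjusted p of 0.244 and 0.659).

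MXD3, the MXD protein of proliferating cells, ran in the opposite order. It lay at 18.3, 18.9 and 16 CPM with CKI, 24.9, 22 and 25.9 CPM with Kushen and 56, 50 and 45.9 CPM with Baituling. The groups were again fully apart, and how common that is over all genes tested was not counted. MXD3 was 2.86-fold lower with CKI than with Baituling (log2 fold change -1.52 ± 0.08, adjusted p = 2.01e-12 in edgeR). It was lower with Kushen than with Baituling by -1.06 ± 0.08 (edgeR adjusted p = 3.72e-10), and the size fell short of the threshold at -0.97 without Baituling replicate 1, at -0.99 with upper quartile factors and at -0.85 with library totals. It was lower with CKI than with Kushen by -0.45 ± 0.09 (edgeR adjusted p = 0.000339). MXD3 shares its locus with RAB24 on the same strand and PRELID1 on the other strand. RAB24, with 217 to 439 counts, was higher than with Baituling by 0.35 in CKI and 0.47 in Kushen. PRELID1, with 3465 to 4932 counts against 406 to 1148 for MXD3, was lower by -0.48 and -0.52. The part of reads from these neighbors in the MXD3 value was not tested.

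MXD4 and the related MXI1 are both MAX partners that recruit SIN3. MXD4 showed neither order, and MXI1 was higher than with Baituling in both contrasts, as MXD1 was, but not higher with CKI than with Kushen. MXD4 had the most counts of the MXD genes, with 121, 121 and 123 CPM with CKI, 112, 123 and 129 CPM with Kushen and 131, 122 and 118 CPM with Baituling. All 3 groups overlapped, and differences of 0.01, -0.02 and -0.03 did not pass in edgeR, although library totals gave 0.27 and 0.18 against Baituling in CKI and Kushen with adjusted p of 4.07e-05 and 0.00199. MXI1 lay at 74.6, 74.9 and 81.3 CPM with CKI, 78.4, 84.8 and 83 CPM with Kushen and 54.9, 56 and 51.7 CPM with Baituling. The Baituling libraries were the lowest, and MXI1 was higher by 0.50 ± 0.05 in CKI and 0.60 ± 0.05 in Kushen (edgeR adjusted p of 4.26e-08 and 4.48e-09). CKI and Kushen overlapped at MXI1 (-0.09, edgeR adjusted p = 0.151).

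MNT, a repressor that opposes MYC in dividing and resting cells alike, changed little. Its levels were 22.9, 21.6 and 22.1 CPM with CKI, 19.8, 20.7 and 23.2 CPM with Kushen and 22.9, 25.2 and 24.5 CPM with Baituling, and the groups overlapped. The lower value with Kushen than with Baituling (-0.19 ± 0.07, edgeR adjusted p = 0.0233) was 0.02 with library totals and lost its call in 8 further settings. Differences of 0.07 between CKI and Kushen and -0.12 between CKI and Baituling did not pass at MNT (edgeR adjusted p of 0.461 and 0.127). Library totals turned the second to 0.17 (edgeR adjusted p = 0.0435). MGA, the PRC1.6 scaffold, gave 36.6, 34.2 and 32.4 CPM with CKI, 35.5, 36.3 and 35.1 CPM with Kushen and 26.3, 31.6 and 35.1 CPM with Baituling. Baituling replicate 1 was the lowest library and replicate 3 reached the Kushen level. MGA was higher with Kushen than with Baituling by 0.21 ± 0.08 (edgeR adjusted p = 0.0259), which became 0.11 (adjusted p = 0.187) without Baituling replicate 1. The difference from CKI to Baituling was 0.16 (edgeR adjusted p = 0.0796), which did pass in 4 alternatives. MGA was then at 0.44 (adjusted p = 7.62e-05) with library totals, 0.23 (0.0148) with upper quartile factors, 0.20 (0.0323) with at least 10 counts in every library and 0.25 (0.00916) without Baituling replicate 3.

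On the MLX side of the network the hub varied little and both of its glucose-sensing partners were lower with Baituling. MLX lay at 76.1, 79.3 and 78.8 CPM with CKI, 71.9, 69.5 and 70.2 CPM with Kushen and 73.5, 72.9 and 68.1 CPM with Baituling. The CKI libraries were the highest, by 0.15 ± 0.05 over Kushen and 0.13 ± 0.05 over Baituling (edgeR adjusted p of 0.016 and 0.0188), and each of these calls was lost in 5 alternatives, DESeq2 among them. Library totals moved them up instead, to 0.22 over Kushen and 0.41 over Baituling. PSMC3IP, on the opposite strand at MLX, was 0.30 higher with CKI than with Kushen (edgeR adjusted p = 0.0259). MLXIP (MondoA) lay at 128, 126 and 120 CPM with CKI, 124, 131 and 137 CPM with Kushen and 76.5, 93.2 and 95.6 CPM with Baituling. All Baituling libraries were below all others, and MLXIP was higher by 0.50 ± 0.06 in CKI and 0.57 ± 0.06 in Kushen (edgeR adjusted p of 8.49e-07 and 1.81e-07). CKI and Kushen overlapped at MLXIP (-0.07, edgeR adjusted p = 0.416). MLXIPL (ChREBP), not a member by the rule, lay at 13.3, 12.9 and 10.5 CPM with CKI, 14.5, 11.2 and 15.4 CPM with Kushen and 3.81, 4.28 and 4.8 CPM with Baituling. It was higher than with Baituling by 1.51 ± 0.14 in CKI and 1.68 ± 0.14 in Kushen (edgeR adjusted p of 9.69e-09 and 2.44e-09).

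Counted over the 9 members, CKI against Kushen had 3 higher (MXD1, MYC and MLX) and 1 lower (MXD3) at an adjusted p under 0.05, where 19.6% of all genes tested were higher and 20.2% lower. In edgeR 0 members were past both that p and the fold threshold, against 1.7% of genes higher and 0.197% lower. DESeq2 and limma voom also put 0 members past both, and 4 members had an unadjusted p under 0.05, of which 0 reached the fold threshold. CKI against Baituling had 3 higher (MXD1, MLXIP and MLX) and 3 lower (MXD3, MYC and MAX), beside backgrounds of 39.1% and 37%. MXD1 and MXD3 passed both thresholds there, 1 in each direction, with 11.2% of genes past them higher and 7.91% lower. Kushen against Baituling had 3 higher (MXD1, MLXIP and MGA) and 4 lower (MXD3, MYC, MAX and MNT), beside 35.6% and 36.1%. MXD3 alone passed both thresholds in it, with 8.5% of genes past them higher and 6.73% lower. Counts over 9 genes are coarse, and the median log2 fold change of the members (0.07, -0.02 and -0.03) lay close to that of all genes tested (0.01, 0.03 and 0.02), as it did with library totals (0.14, 0.27 and 0.18 against 0.08, 0.32 and 0.23). The 3 contrasts share libraries, so their counts are not separate evidence.

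**Figure D2:**
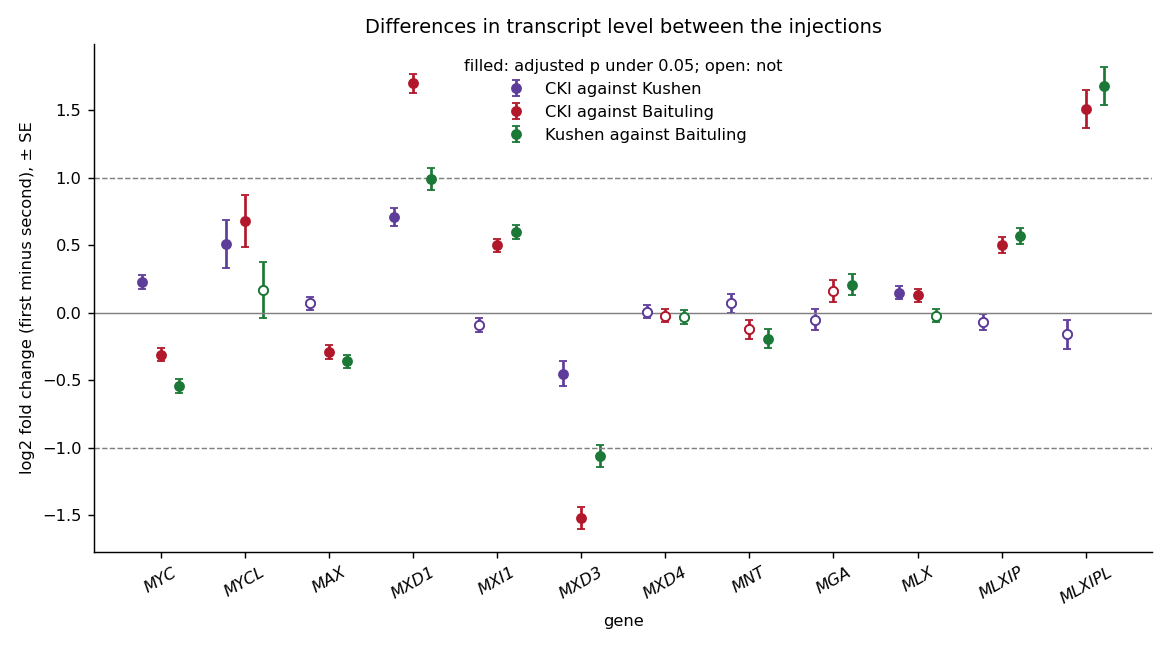
Log2 fold change ± SE (y axis) of 12 network genes (x axis) in the 3 contrasts, from the edgeR fit on the TMM scale. Filled points have an adjusted p under 0.05, open points do not, and dashed lines mark the fold threshold of 1. MXD1 (1.70) and MXD3 (-1.52) in CKI against Baituling and MLXIPL in both contrasts with Baituling lie beyond the lines, MXD1 (0.99) and MXD3 (-1.06) in Kushen against Baituling sit at them, and the other points lie between the lines.

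Ratios of counts within a library do not depend on library scaling, and they set each partner against MAX. The MYC to MAX ratio was 3.40, 3.58 and 3.70 with CKI, 2.88, 3.17 and 3.49 with Kushen and 3.54, 3.66 and 3.64 with Baituling, so the groups overlapped and the order of MYC itself was partly shared by MAX. The MXD1 to MAX ratio was 0.655 ± 0.0267 (SD, n = 3) with CKI, 0.421 ± 0.0282 with Kushen and 0.166 ± 0.0252 with Baituling. The MXD3 to MAX ratio ran the other way, at 0.254 ± 0.0228, 0.365 ± 0.0387 and 0.593 ± 0.045. Both sets of 3 groups were fully apart. These ratios are given as values without a test, and an exact permutation test of them would not go below a two-sided p of 0.1 with 3 libraries a group.

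The ratio of MXD3 to MXD1 counts combines the opposite orders of these genes seen above, so it had to draw the groups further apart than either gene did. It was 0.387, 0.433 and 0.348 with CKI, 0.880, 0.824 and 0.893 with Kushen and 4.27, 3.11 and 3.5 with Baituling, so MXD3 had more counts than MXD1 in the Baituling libraries only. Of all counts on MXD1, MXI1, MXD3 and MXD4, MXD1 took 17.4% ± 0.624 (SD) with CKI, 11% ± 0.598 with Kushen and 5.82% ± 0.716 with Baituling. MXD3 took 6.77% ± 0.672, 9.50% ± 0.834 and 20.8% ± 0.981, and MXD4 took 46.5% to 51.0% on average. MXI1 took 29.3%, 32.1% and 22.4%. Counts grow with transcript length, and so do these shares. With each count divided by the canonical transcript length, MXD1 took 10.5%, 6.10% and 2.61% and MXD3 took 21.2%, 27.5% and 48.6% in CKI, Kushen and Baituling, in the same order of treatments as by counts. The share of MXD4 then ran the other way, at 40.1%, 37.8% and 32.8%, so its order depends on the length.

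**Figure D3:**
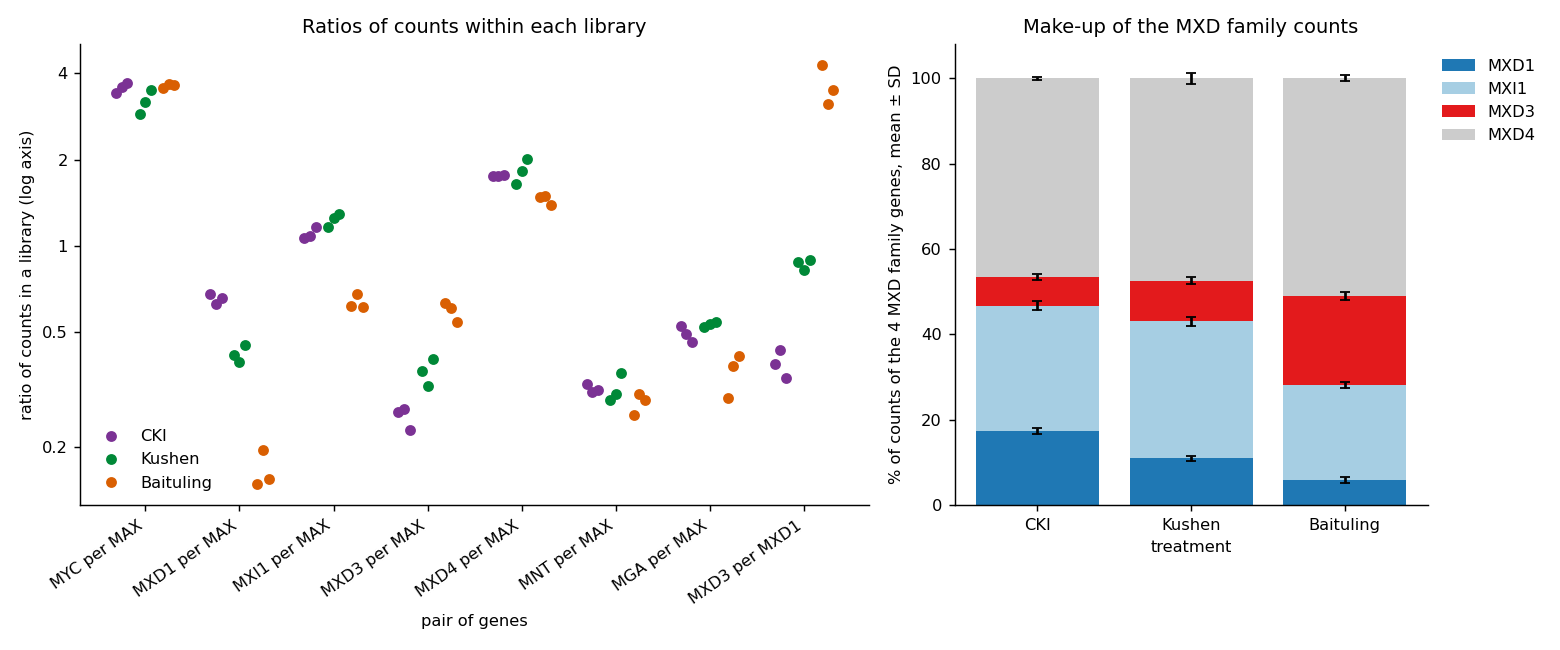
Left, ratio of the counts of 2 genes in each library (log y axis) for 8 pairs (x axis), colored by treatment. Right, mean share (% of counts, y axis, error bars ± SD of each gene's share over 3 libraries) of MXD1, MXI1, MXD3 and MXD4 in each treatment. MYC per MAX overlaps between treatments, MXD1 per MAX descends from 0.655 to 0.166 and MXD3 per MXD1 climbs from 0.389 to 3.62.

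Per kilobase of the canonical transcript, MYC had the highest level of the members in every group, at 66.8 CPM per kb with CKI, 56.8 with Kushen and 82.8 with Baituling. MAX, at 33.1 to 42.4 CPM per kb, MLX at 29.9 to 33.1 and MXD4 at 31.4 to 32.0 were close to one another on this scale. Over the length of all exons MAX was lower, at 10.6 to 13.6 CPM per kb, than MLX (16.6 to 18.3) and MXD4 (17.7 to 18), so their order depends on the length too. MXD3 lay at 16.6, 22.8 and 47.5 CPM per kb in CKI, Kushen and Baituling, but its canonical transcript of 1067 bases is short beside the 4743 bases of all its exons, over which the values were 3.74, 5.12 and 10.7. Its rank among the members is therefore uncertain. MGA (2.54 to 2.92) and MNT (4.30 to 4.91) were low on the canonical scale, and MXD1 was at 8.23 with CKI, 5.05 with Kushen and 2.54 with Baituling.

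Of all 11964 genes with a mean of at least 1 on the log2 CPM scale, those with the profile nearest to a member over the 9 libraries were listed by the root mean square difference of centred log2 CPM. Nearest to MYC were GSK3A (0.0323), DDIT4 (0.0360) and TINAGL1 (0.0366), where the median gene was at 0.303. Nearest to MXD1 were FBXL19-AS1 (0.105), the repressor BCL6 (0.109) and PLCXD2 (0.120), with a median of 0.725. BCL6 had a mean of 82.7 CPM with CKI, 53.8 with Kushen and 28.1 with Baituling. Nearest to MXD3 were the mitochondrial ribosome gene MRPL23 (0.0625), PEMT (0.0832) and the kinase gene PTK6 (0.0927), with a median of 0.643. MRPL23 had means of 28.2, 38.5 and 78.2 CPM. With 3 treatments, many genes share such an order.

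Cofactors of MYC and of its opponents were read from short lists of known genes, beside the medians and shares of all genes tested that are given above. Of 13 coactivators tested, CKI against Kushen had 2 higher and 3 lower, CKI against Baituling 2 and 7, and Kushen against Baituling 3 and 9. The medians were -0.01, -0.27 and -0.26 on the log2 scale, and with library totals they were 0.07, 0.02 and -0.05. In edgeR 0 were past both thresholds, with 7, 9 and 12 at an unadjusted p under 0.05. RUVBL2, an ATPase of chromatin complexes that bind MYC, was lower by -0.86 ± 0.05 in CKI (155 against 281 CPM) and -0.97 ± 0.05 in Kushen (143 against 281 CPM) relative to Baituling. RUVBL1 was lower with CKI by -0.92 than with Baituling and by -0.39 than with Kushen, and KAT5, an acetyltransferase, by -0.57 in Kushen against Baituling. Each of these changes passed in edgeR (adjusted p of 2.59e-06 or less).

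Of 9 SIN3 and MIZ1 corepression genes, CKI had 3 higher and 2 lower than Kushen and 3 higher and 4 lower than Baituling, while Kushen had 2 higher and 5 lower than Baituling, with 5, 7 and 7 at an unadjusted p under 0.05 and 0 past both thresholds in edgeR. The medians were -0.00, 0.00 and -0.15, and 0.08, 0.29 and 0.06 with library totals. SUDS3, a SIN3 complex subunit, was higher than with Baituling by 0.66 ± 0.05 in CKI and 0.85 ± 0.05 in Kushen. The deacetylase HDAC1 was lower with Kushen than with Baituling by -0.72 ± 0.05 and 0.30 ± 0.05 higher with CKI than with Kushen. NCOR1 was 0.63 higher with CKI than with Baituling, and ZBTB17 (MIZ1) 0.26 higher with CKI than with Kushen (edgeR adjusted p of 0.00138 or less for these 4 genes). SIN3A itself, the scaffold, added after its values were seen, differed by -0.10, 0.00 and 0.10, none of which passed.

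Of 9 partners of MGA in PRC1.6, CKI had 5 higher and 2 lower than Kushen, and 3 were higher and 5 lower in both contrasts with Baituling. The medians were 0.16, -0.21 and -0.26 in CKI against Kushen and the contrasts of CKI and of Kushen with Baituling, and 0.23, 0.08 and -0.05 with library totals. RYBP, which stimulates H2A ubiquitylation, was the one gene past both thresholds, at 70.3 CPM ± 2.70 with CKI against 31.5 ± 1.02 with Baituling (log2 fold change 1.16 ± 0.05, adjusted p = 2.21e-13 in edgeR). It was also higher with Kushen than with Baituling (0.64) and with CKI than with Kushen (0.51). TFDP1, the dimer partner of E2F6, was lower than with Baituling by -0.80 in CKI and -0.58 in Kushen. L3MBTL2 was 0.25 higher with CKI than with Kushen (edgeR adjusted p = 0.0177).

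Of 16 genes of MYC protein turnover, CKI had 4 higher and 3 lower than Kushen and 6 higher and 7 lower than Baituling, and Kushen had 6 higher and 6 lower than Baituling, with medians of 0.03, 0.04 and 0.04. With library totals the medians were 0.11, 0.32 and 0.25, where those of all genes tested were 0.08, 0.32 and 0.23. AURKA, a mitotic kinase that can shield MYC proteins from degradation, was 73.8 CPM ± 1.44 with CKI, 80.7 ± 2.27 with Kushen and 246 ± 1.70 with Baituling. It was lower by -1.73 ± 0.04 in CKI and -1.60 ± 0.04 in Kushen against Baituling (edgeR adjusted p of 1.51e-17 and 5.99e-17). SKP2, a ubiquitin ligase subunit for MYC (-1.12), and CIP2A, an inhibitor of the phosphatase PP2A (-1.09), also passed both thresholds in CKI against Baituling. PIM1 and PIM2, kinases that phosphorylate MYC, were higher with CKI than with Kushen by 0.47 and 0.34. AURKA and SKP2 also vary with the cell cycle, and what share of their difference goes with it was not tested.

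Of 6 regulators of the MYC gene and its transcript, 1 was higher and 2 lower with CKI than with Kushen. Relative to Baituling, CKI had 1 higher and 4 lower and Kushen 0 higher and 5 lower. The medians were 0.03, -0.31 and -0.32, and 0.11, -0.02 and -0.11 with library totals. PVT1, the long noncoding RNA next to MYC, was 37.5 CPM ± 0.698 with CKI and 29.4 ± 1.77 with Kushen, higher by 0.35 ± 0.06 (edgeR adjusted p = 0.000138), where MYC was higher as well. Against Baituling PVT1 was 0.36 higher with CKI (edgeR adjusted p = 3.44e-05) and 0.01 apart with Kushen, whereas MYC was at -0.31 and -0.54. HNRNPK was lower than with Baituling by -0.65 in CKI and -0.53 in Kushen, and ELAVL1, an RNA-stabilizing protein, by -0.68 and -0.63. HNRNPK was lower with CKI than with Kushen by -0.13 (edgeR adjusted p = 0.0123), a call lost at -0.05 with library totals.

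Genes that MYC is known to activate were mostly lower with CKI and Kushen than with Baituling. Of 51 tested, 3 were higher and 43 lower in CKI against Baituling (median log2 fold change -0.73, or -0.44 with library totals). In Kushen against Baituling 5 were higher and 41 lower (median -0.52, or -0.31 with library totals). In CKI against Kushen 5 were higher and 24 lower (median -0.12, or -0.04 with library totals). Past both thresholds were 1 higher and 13 lower, 0 higher and 11 lower, and 0 in either direction. In all genes tested the medians were 0.03, 0.02 and 0.01 in the same order of contrasts (0.32, 0.23 and 0.08 with library totals). Of them, 39.1%, 35.6% and 19.6% were higher and 37%, 36.1% and 20.2% lower. The shares past both thresholds were 11.2%, 8.5% and 1.7% higher and 7.91%, 6.73% and 0.197% lower. TFAP4, a transcription factor gene, was 8.68 CPM ± 0.423 with CKI, 11.5 ± 1.18 with Kushen and 32.9 ± 0.793 with Baituling (-1.92 and -1.52 against Baituling). PTMA, the prothymosin gene, was 415 CPM ± 17.6 with CKI and 1297 ± 65.6 with Baituling (-1.64), TERT, the telomerase gene, showed -2.23 in CKI and -1.41 in Kushen from 15 to 81 counts, and RRS1, for ribosome assembly, -1.55 and -1.35. SRM, for spermidine synthesis, showed -1.28 in Kushen against Baituling. EIF4A1, a helicase of translation initiation, went against the list at 1.08 in CKI against Baituling. Its 8.30 CPM with CKI rests on a locus shared with the read-through gene SENP3-EIF4A1 on the same strand. TFRC and POLR1B, added after their values were seen, went against the list too. TFRC was higher than with Baituling by 0.72 in CKI (478 against 290 CPM) and 0.89 in Kushen (539 against 290 CPM). POLR1B was higher by 0.20 and 0.19 (edgeR adjusted p of 0.0118 or less for these 2 genes).

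Of 11 genes known to be repressed by MYC, CKI had 6 higher and 3 lower than Kushen (median 0.24, or 0.31 with library totals). Relative to Baituling, CKI had 8 higher and 3 lower (0.29, or 0.57) and Kushen 4 higher and 5 lower (0.00, or 0.21). Beside these, 19.6%, 39.1% and 35.6% of all genes tested were higher in the 3 contrasts and 20.2%, 37% and 36.1% lower. The medians of all genes tested were 0.01, 0.03 and 0.02, or 0.08, 0.32 and 0.23 with library totals. GADD45A, a growth arrest gene, was 165 CPM ± 6.83 with CKI and 83.3 ± 7.35 with Kushen (0.99 ± 0.05, edgeR adjusted p = 9.32e-11), and CDKN1A, the p21 inhibitor of cyclin-dependent kinases, singled out after its values were seen, was 0.72 higher with CKI than with Kushen and 0.00 apart between Kushen and Baituling. CLU, a secreted chaperone gene, was higher than with Baituling by 1.54 in CKI and 1.57 in Kushen. NDRG2 was higher by 2.02 ± 0.24 and 1.18 ± 0.26. Its levels were low, at 3.94 CPM with CKI, 2.19 with Kushen and 0.951 ± 0.361 with Baituling. PDGFRB was higher than with Baituling by 1.13 in CKI, and FTH1, the ferritin heavy chain gene, by 1.02 in Kushen. ITGA6 went against the list, at -1.30 in CKI and -0.91 in Kushen against Baituling. KLF6 and THBS1, added after their values were seen, did so too. KLF6 was at -0.82 and -0.77, and THBS1 at -0.54 and -0.36. With Kushen, GADD45A (-0.70) and NDRG1 (-0.31) were also lower than with Baituling. GADD45A, CDKN1A and FTH1 are also known targets of stress pathways other than MYC.

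Of 5 targets of MondoA and ChREBP tested, CKI had 3 higher and 1 lower than Kushen (median 0.23) and 4 higher and 1 lower than Baituling (0.39), and Kushen had 3 higher and 2 lower than Baituling (0.16). With library totals these medians were 0.30, 0.68 and 0.38, where those of all genes were 0.08, 0.32 and 0.23. In all genes tested 19.6%, 39.1% and 35.6% were higher in these contrasts and 20.2%, 37% and 36.1% lower. ARRDC4, a classical MondoA target, was 13.8 CPM ± 0.764 with CKI, 12.1 ± 0.902 with Kushen and 7.19 ± 0.621 with Baituling (0.95 and 0.76 against Baituling, edgeR adjusted p of 3.56e-08 and 1.21e-06). FASN, the fatty acid synthase gene and a ChREBP target, was lower with CKI by -0.83 against Baituling and -0.48 against Kushen. KLF10 was 0.72 higher with CKI than with Kushen and lower with Kushen than with Baituling by -0.46. TXNIP, the best known MondoA target, is not analysed here.

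**Figure D4:**
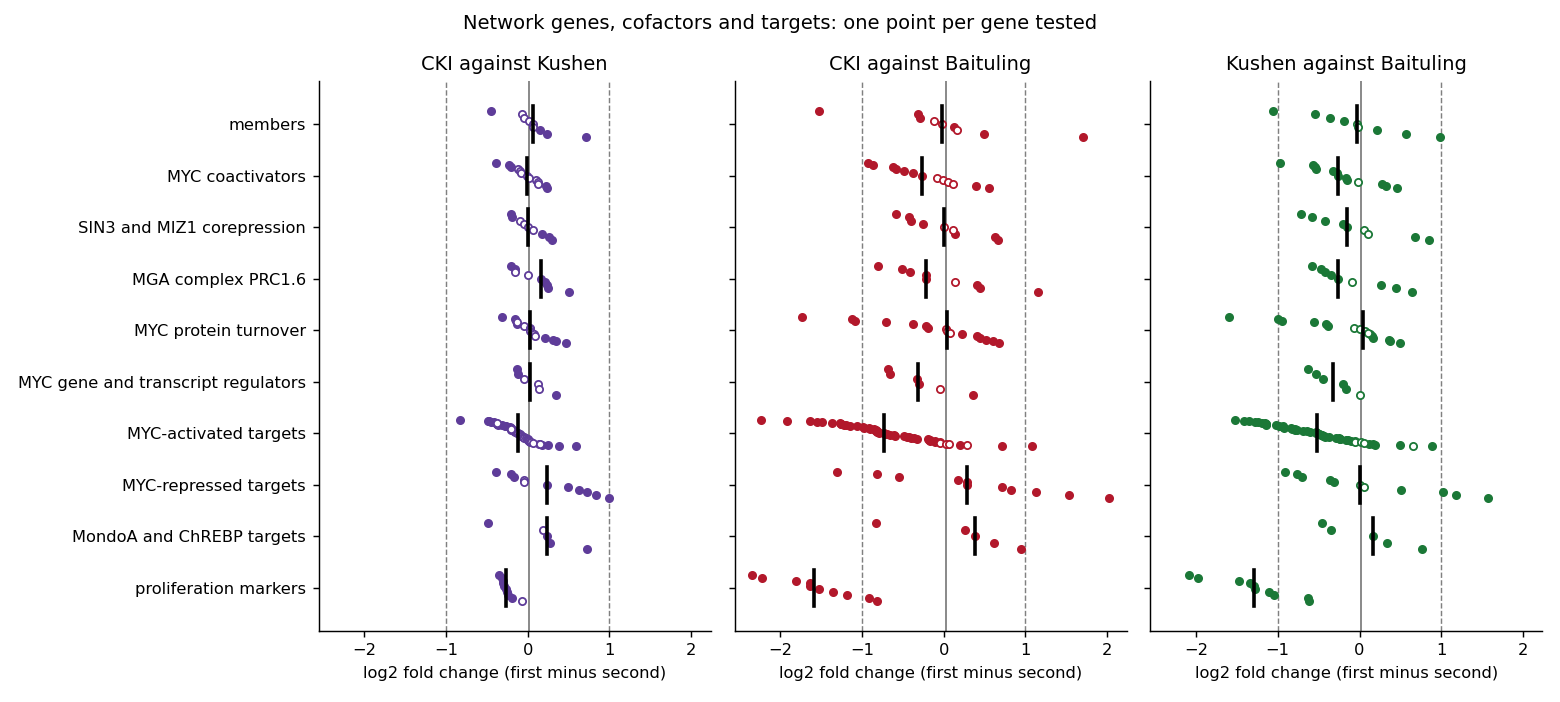
Log2 fold change (x axis) of each gene tested in 10 lists (y axis), 1 panel per contrast. Filled points have an adjusted p under 0.05, black bars are list medians, the grey line is the median of all genes tested and dashed lines mark the fold threshold of 1. The MYC-activated targets (medians -0.73 and -0.52) and proliferation markers (-1.58 and -1.29) lie left of the grey line in both contrasts with Baituling, while the members spread to both sides.

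Proliferation markers moved beside these results. Of 10 tested, 0 were higher and 9 lower in CKI against Kushen (median -0.27). Against Baituling 0 were higher and all 10 lower, both with CKI (median -1.58) and with Kushen (median -1.29), with 8 past both thresholds each time. With library totals these medians were -0.20, -1.30 and -1.07. Of all genes tested, 20.2%, 37% and 36.1% were lower in the same order of contrasts. In those with Baituling, 7.91% and 6.73% were past both thresholds and lower. The summed level of the 10 genes was 715 to 746 CPM in the CKI libraries, 863 to 890 CPM in the Kushen libraries and 2043 to 2068 CPM in the Baituling libraries. The mitotic cyclin gene CCNB1 was 67.7 CPM ± 2.61 with CKI, 80.8 ± 2.37 with Kushen and 316 ± 6.35 with Baituling, and AURKB was 28.9 ± 1.48, 34.4 ± 1.78 and 146 ± 2.54. CCNA2 and CDK1 were lower with CKI than with Baituling by -1.80 and -1.64, and MCM5 lower with Kushen than with Baituling by -1.34. The order of their summed level over the treatments is that of MXD3 and the reverse of that of MXD1. What part the number of dividing cells had in the levels of MXD1, MXD3 and the MYC targets was not tested.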

How the data were processed

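Total RNA of MDA-MB-231 cells was sequenced as unstranded read pairs in 9 libraries, which were grouped by their GEO labels. The authors trimmed reads with Trim Galore 0.3.7, aligned them to hg19 with STAR 2.5.3a and deposited raw counts per gene, without normalization. The counting program, its annotation and its treatment of reads shared between genes are not given in the sources used here. From 24566 rows, 222 repeats of an Ensembl gene with identical counts were removed. Columns were assigned by treatment initial and replicate number.

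Genes were kept by filterByExpr (minimum count 10, minimum total 15), which removed 10149. Counts were scaled by TMM and fitted in edgeR 4.0.16 (R 4.3.3) by the quasi-likelihood method, with all 9 libraries and group as the only term. Two-sided p-values were adjusted by Benjamini-Hochberg over the 14195 genes left. A gene was called at an adjusted p under 0.05 and an absolute log2 fold change above 1. The biological coefficient of variation was 4.53%. Chi-square per gene between replicates was 1.70 to 6.85, so no pair agreed within sampling noise. The labels call the libraries biological replicates. The fit was tested on simulated data. Alternatives used DESeq2 1.42.0, limma 3.58.1, other scalings and filters, and each library left out.

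The members and lists were chosen with earlier results of these data known. Named were all members and family genes, and per list and contrast up to 4 called genes of largest change, or 2 with an adjusted p under 0.05 where fewer than 2 were called. For MYC and each called member, the 3 nearest profiles were added. Tables were handled in Python 3.11.15 with pandas 2.3.3. TXNIP, BOP1 and PECAM1 are not analysed here. One gene that the naming rule picks is not reported here.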

Additional observations from a re-analysis of the deposited data

How the results depend on the processing

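MXD1 and MXD3 kept their direction and an adjusted p under 0.05 in all 3 contrasts under every alternative run on single genes, and so did MYC except in CKI against Baituling with library totals. Genes called numbered 270, 2715 and 2162 in CKI against Kushen, CKI against Baituling and Kushen against Baituling, and 102, 1808 and 1415 when at least 10 counts were required in every library. Tested against a log2 fold change of 1, they numbered 42, 1515 and 1029. The members past both thresholds in Kushen against Baituling (1) became 2 with at least 10 counts in every library, 2 with only those 2 groups fitted, 2 with rows as deposited and 0 when tested against the fold of 1, and ranged from 0 (without Baituling replicate 1) to 2 (without Baituling replicate 2) when a library was left out. Small differences changed sign, and some of these then passed with library totals. MXD4 in CKI against Kushen gave -0.01 with RLE size factors and with DESeq2, and -0.05 to 0.05 when a library was left out. MXD4 in CKI against Baituling gave 0.27 with library totals, 0.05 with upper quartile factors and 0.02 with at least 10 counts in every library, and -0.06 to 0.02 when a library was left out. Kushen against Baituling gave MXD4 values of 0.18, 0.04 and 0.00 under those 3 settings and -0.07 to 0.03 over the libraries left out. MLX in that contrast gave 0.19 (edgeR adjusted p = 0.00103), 0.05 and 0.01, and -0.06 to 0.01. Library totals also turned MNT to 0.17 against Baituling in CKI (edgeR adjusted p = 0.0435) and 0.02 in Kushen (0.809). They turned MGA and MLXIP in CKI against Kushen to 0.03 and 0.01. Over the named genes, 1877 values kept their direction and call. With the direction kept, 33 lost a call and 6 gained one. The 22 that changed sign were counted apart, whether or not their call changed as well. The cause of these changes was not tested. Replicate numbers did not pair the samples (same-number correlations -0.18 to 0.21). With the number as a replicate block, calls numbered 269, 2713 and 2158, and members with an adjusted p under 0.05 were again 4, 6 and 7. Counting error limits MYCL, with 28 to 69 counts, more than the members.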
